A study of Mus musculus with 10 samples.

Results

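Long intergenic noncoding RNAs (lincRNAs) are described here in C2C12 cells on day 6 of myogenic differentiation and before its induction. The genes were those typed as lincRNA in the authors' count table whose counts over the 10 libraries summed to 200 or more. H19, Meg3, Rian and Mirg, noncoding RNAs of imprinted loci, were left out of the rule. This gave 180 genes of the 2769 lincRNA genes and of the 35275 genes of the table. C2C12 is a line of mouse myoblasts that stop dividing, express muscle genes and fuse into myotubes when the serum is lowered. The 5 day 6 libraries came from C2C12 cells in DMEM with 2% horse serum and antibiotics, and the 5 libraries before differentiation from the same line in DMEM with 10% fetal bovine serum and antibiotics. The labels name no transgene or deletion in either condition, all libraries came from this single line, and no label says that they were grown apart, so that the p-values rest on a spread that may be technical.

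A lincRNA is transcribed from its own gene, usually by RNA polymerase II, and is spliced and often polyadenylated like a messenger RNA, but encodes no long protein. Some stay in the nucleus, where Malat1 and Neat1 mark nuclear bodies and Xist coats the inactive X chromosome, and others mainly carry small RNAs, microRNAs or small nucleolar RNAs (snoRNAs), that are cut from their introns or exons. In muscle cells the class is best known for linc-MD1, made from the locus of the muscle microRNAs miR-206 and miR-133b, for linc-MYH, which lies among the genes of the fast myosin heavy chains, and for genes that turned out to encode micropeptides.

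The genes were chosen by their summed counts, which are given only as a description. Of the 2769 lincRNA genes, 1598 had no count in any library, 990 had counts but fewer than 200 and 181 had 200 or more, H19 among them. Meg3, Rian and Mirg had no count. The genes just inside the limit were 1700001L05Rik and 2610316D01Rik with 201 counts each and Gm26823 with 202, and those just outside it were Gm26512 with 196 and Gm26530 and E530011L22Rik with 195 each. The median gene of the 180 had 490.5 counts and a mean level of 2.84 CPM, the usual unit of counts relative to the library total, here TMM-scaled, against a median of 32.2 CPM over the protein-coding genes tested. The mean level was under 5 CPM in 123 genes and over 100 CPM in 6. All 180 passed edgeR's filter on low counts, but 59 reached the sum with fewer than 100 counts in a condition, 44 of them before differentiation and 15 on day 6. Such a gene reached the sum through its other condition, so that the choice of genes fixed its direction, and 40 of the 59 were called higher and 11 lower. For named genes with fewer than 100 counts in a condition, values and fold changes are therefore given without a p-value.

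The type was checked against a later annotation of the same genome build, GENCODE M21. It held 168 of the 180 genes by identifier, and 121 of these were still lincRNAs. The others were typed as antisense RNA (21), processed transcript (11), bidirectional promoter RNA (7) or something else (8). Gm2115 and Kantr were among these and are protein-coding there, so not all the genes are intergenic or noncoding by that annotation. Of the 180 intervals, 47 overlapped a protein-coding gene of the authors' table on the opposite strand and 10 overlapped one on the same strand. The strand setting of the counting is not stated, so it is not known whether the reads of such overlapping genes were kept apart. The stage labels were checked with marker genes. The 4 myotube markers (Myog, Myh3, Ckm and Acta1) summed to 6857 to 10640 CPM on day 6 and 18.5 to 19.5 CPM before, and 3 markers of dividing cells (Mki67, Top2a and Ccna2) to 77.8 to 112 CPM on day 6 and 1405 to 1569 CPM before. The 3 myoblast markers (Myod1, Myf5 and Pax7) did not fall as a sum, with 168.9 to 215.7 CPM on day 6 and 145.2 to 166 CPM before. Myod1 was higher on day 6 (152.5 to 197.7 CPM, against 111.6 to 129.5), while Myf5 and Pax7 were lower. Markers of adipocytes, endothelial cells, macrophages and osteoblasts summed to 0 to 1.53 CPM on day 6 and 0 to 2.75 CPM before. The libraries held 15367909 to 20509280 counts on day 6 and 16288532 to 21622527 before.

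On day 6, 96 of the 180 lincRNA genes were higher than before differentiation and 38 were lower, and 46 did not pass the test. The test was edgeR's quasi-likelihood test with Benjamini-Hochberg adjustment over 13085 genes and a threshold of 0.05. The share of lincRNA genes called higher was 53.3%, against a background of 40.1% over all genes tested, and the share called lower was 21.1%, against 39.7%. The share called in either direction was 74.4%, against 79.8%. By more than 1 on the log2 scale, 65 (36.1%) were higher, against 18.1% of all genes tested, and 23 (12.8%) were lower, against 14.7%. Of these 65 genes, 37 had fewer than 100 counts before. The libraries of the conditions did not overlap for 108 (60.0%) of the lincRNA genes, against 69.1% of all genes tested, and 79 of the 108 were higher on day 6 (43.9%, against 34.3%). Over the 12172 genes of any type that also had 200 or more counts, 40.5% were higher, 41.1% lower and 81.6% either.

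The median log2 fold change of the 180 genes, day 6 over before, was 0.55, against 0.01 over all genes tested. Setting the genes that had no count before to their lower bound could not move it, since these bounds also lie above the median. Over the 89 genes with a sum of 500 or more the median was 0.33, with 48 higher and 26 lower. Restricted to the 121 genes with at least 100 counts in each condition, the median was 0.27, against -0.03 over the 11259 genes of any type under the same restriction. Of these 121, 56 were higher (46.3%, against 38.2%) and 27 were lower (22.3%, against 42.3%), and in either direction the share was 80.5% over all such genes. By more than 1 on the log2 scale, 28 of the 121 were higher (23.1%, against 13.2%) and 15 were lower (12.4%, against 13.9%). Over the 121 genes still typed as lincRNA in GENCODE M21, 61 were higher and 27 lower, with a median of 0.49, where 40.1% of all genes tested were higher and 39.7% lower. Among the other types of the table, 42.4% of 144 antisense genes and 38.0% of 163 processed transcripts were higher, with medians of 0.52 and 0.32, 14.8% of 304 pseudogenes were higher and 51.3% lower, with a median of -0.55, and 40.6% of 12170 protein-coding genes were higher and 40.5% lower, with a median of 0.01. The log2 fold changes of the lincRNA genes ran from -5.34 (RP24-73K7.4) to 8.61 (Gm14635) among genes with more than 3 counts in each condition. In bulk RNA, a change in the share of cells of a kind and a change in the RNA of each cell cannot be told apart.

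**Figure D1:**
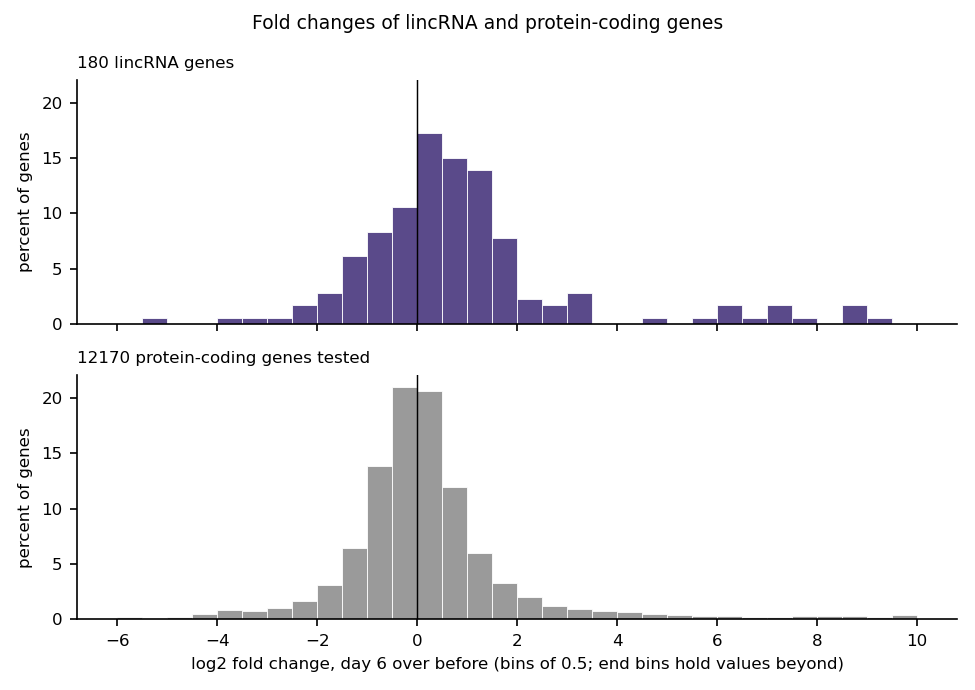
Percent of genes in bins of 0.5 of the log2 fold change, day 6 over before (x axis), for the 180 lincRNA genes (top) and the 12170 protein-coding genes tested (bottom). The lincRNA genes lie further to the right, with a median of 0.55, and some stand apart above 6.

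**Figure D2:**
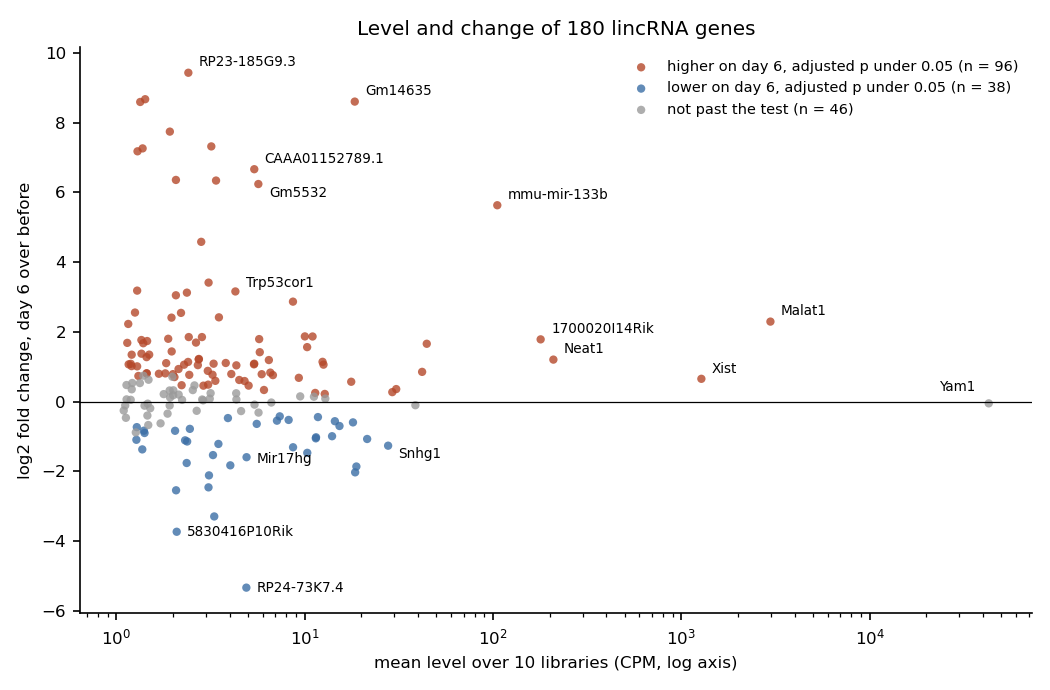
Mean level over the 10 libraries in CPM (log axis) against the log2 fold change, day 6 over before, with a point for each of the 180 lincRNA genes. Red points were higher (96), blue points lower (38), and grey points did not pass the test (46). Most of the genes lie under 5 CPM, and Yam1, Malat1, Xist, Neat1, 1700020I14Rik and mmu-mir-133b lie above 100 CPM.

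Ranked by their mean level per kilobase of gene length over the 10 libraries, the highest lincRNA genes were Yam1, Malat1 and Xist at 23431, 426 and 72.0 CPM per kilobase. AU020206, 3300005D01Rik, 1700020I14Rik, mmu-mir-133b, 1810058I24Rik, C330006A16Rik and Snhg12 followed with 28.7 to 15.5 CPM per kilobase. The order differed between the conditions. On day 6 mmu-mir-133b followed Xist at 39.2 CPM per kilobase, against 0.786 before, and AU020206 had 12.4, against 45.1 before.

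Malat1, a long nuclear RNA of splicing speckles, rose more than Neat1 and Xist did in log2 fold change. It had 5265, 4508, 5089.6, 4891 and 4954 CPM in day 6 replicates 1 to 5, against 1256, 1236, 1084, 746 and 712 CPM in replicates 1 to 5 before. Every day 6 library lay above every library before, and before differentiation replicates 4 and 5 were the low ones. The log2 fold change was 2.29 (standard error, SE, 0.18, adjusted p = 8.50e-07). Its neighbour on chromosome 19, Neat1, the scaffold RNA of paraspeckles, had 276, 258, 309.6, 287 and 331 CPM on day 6, against 158, 179.9, 118, 85.5 and 92.6 CPM before. The groups did not overlap, and replicates 4 and 5 were again the lowest before. The log2 fold change of Neat1 was 1.20 (SE 0.21, adjusted p = 0.000592).

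Xist, the RNA that silences an X chromosome in female cells, had 1519, 1418, 1654, 1653 and 1573 CPM on day 6, against 1159, 1134, 1013, 908 and 755 CPM before. The groups did not overlap, with a log2 fold change of 0.65 (SE 0.10, adjusted p = 6.91e-05). Jpx and Ftx lie next to Xist and are known as its regulators. Jpx averaged 3.59 ± 0.75 CPM on day 6 and 2.56 ± 0.34 CPM before (SD, n = 5 each), with a log2 fold change of 0.49 (adjusted p = 0.0272), and its call was lost without before replicate 4 (adjusted p = 0.0685), before replicate 5 (0.0545) or day 6 replicate 5 (0.0576). Ftx averaged 11.8 ± 1.4 CPM on day 6 and 10.7 ± 1.3 CPM before and did not pass the test (log2 fold change 0.14, adjusted p = 0.261).

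Yam1, named for its regulation by the factor YY1 in myoblasts, held more counts than all other lincRNA genes together. It had 44081, 45362, 39960.0, 42093 and 39269 CPM on day 6, against 32983, 49339, 68547, 33935 and 33460.0 CPM before. Replicates 2 and 3 before stood above the other 3, and the groups overlapped (log2 fold change -0.05, adjusted p = 0.833). Without these 2 libraries, an alternative chosen after the data were seen, the log2 fold change was 0.32 (adjusted p = 0.00118). In GENCODE M21 this gene is named Gm42418 and lies at chr17:39846958-39848788 on the plus strand, inside an interval annotated as ribosomal RNA at chr17:39846353-39848827 on the minus strand. Counts at Lars2, the gene of the mitochondrial leucyl-tRNA synthetase, moved with it before differentiation, with 0.531% and 0.506% of the library in replicates 2 and 3, against 0.208% to 0.313% in the other 3. Gm26917, measured beside them, had 396 and 245 CPM in these replicates and 133 to 221 CPM in the other 3, and averaged 89.7 ± 10.7 CPM on day 6 and 229 ± 105 CPM before (SD, n = 5 each). The part of ribosomal RNA in the Yam1 counts was not tested.

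All 180 genes together took 5.01 ± 0.19% of the library counts on day 6 and 4.68 ± 1.48% before (SD, n = 5 each). Without Yam1 they took 0.827 ± 0.040% on day 6 and 0.309 ± 0.051% before, with 0.759% to 0.854% in the day 6 libraries and 0.248% to 0.366% before. Malat1 made up 0.490 ± 0.030% on day 6 and 0.101 ± 0.026% before. Without Yam1, Malat1 and Xist the remaining genes took 0.181 ± 0.007% on day 6 and 0.107 ± 0.010% before.

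**Figure D3:**
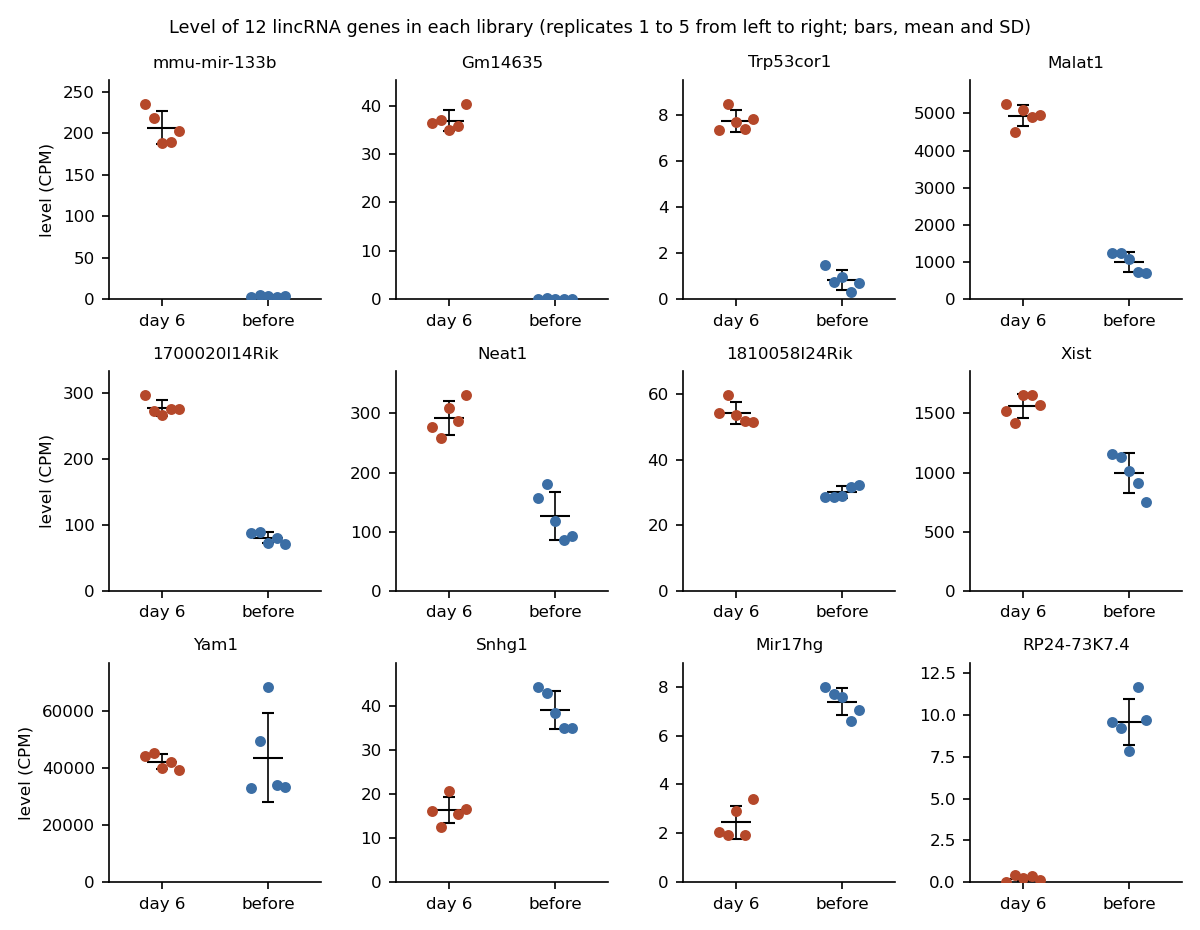
Level in CPM (linear axes from 0) of 12 lincRNA genes in each library, day 6 at the left and before at the right of each panel, with replicates 1 to 5 from left to right and bars for the mean and SD. In 11 panels the groups do not overlap, and in the panel of Yam1 before replicates 2 and 3, at 49339 and 68547 CPM, lie above all day 6 libraries.

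The lincRNA gene of the muscle microRNA locus was mmu-mir-133b, named Gm28653 in GENCODE M21, which covers the locus of linc-MD1 at chr1:20679023-20684298 on the plus strand. It had 236, 218, 189, 189 and 202 CPM in day 6 replicates 1 to 5, against 3.29, 5.17, 4.44, 3.33 and 4.50 CPM before. All day 6 libraries lay far above those before, and the log2 fold change was 5.63 (SE 0.11, adjusted p = 1.54e-16). The gene starts within the hairpin of miR-206 and holds that of miR-133b, which are known from muscle and act on messenger RNAs through bases 2 to 8 of the mature strand, the seed. The libraries did not measure mature microRNAs. The mature strands are shown with the seed in capitals, 5′ to 3′, because this gene had the largest fold change of the lincRNA genes above 100 CPM, and they lie at chr1:20679055-20679076 and chr1:20682834-20682855 (GRCm38.p6, plus strand, from RefSeq).
mmu-miR-206-3p: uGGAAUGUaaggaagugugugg
mmu-miR-133b-3p: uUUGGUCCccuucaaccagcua

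RefSeq hairpins lay on the same strand in, or at the edge of, 11 of the 180 genes, and 6 of these hosts were higher on day 6, 2 were lower and 3 did not pass the test, with a median log2 fold change of 0.68. The share called higher, 6 of 11, was close to that of all 180 genes (53.3%), and 40.1% of all genes tested were higher. Besides mmu-mir-133b, the hosts that rose were E130102H24Rik (miR-101a), A330023F24Rik (miR-29b-2 and miR-29c), 2900076A07Rik (miR-1839), 6720427I07Rik (let-7d) and Gm26532 (miR-24-2). Gm26532, at chr8:84208920-84209609, meets only the edge of its hairpin, and miR-24-3p lies outside the gene at chr8:84208875-84208896. E130102H24Rik had 3.61, 3.84, 2.93, 3.24 and 2.90 CPM on day 6, against 0.987, 0.431, 0.283, 0.544 and 0.888 CPM before. The groups did not overlap (log2 fold change 2.41). A330023F24Rik had 2.52, 1.92, 1.77, 1.10 and 2.52 CPM on day 6, against 0.438, 0.754, 0.803, 0.786 and 1.01 CPM before, again without overlap (log2 fold change 1.37). The miR-29 family is known for targeting collagen messenger RNAs and for its rise as muscle cells differentiate. The log2 fold changes of 2900076A07Rik, 6720427I07Rik and Gm26532 were 1.21, 1.07 and 0.68 (adjusted p = 2.65e-05, 2.88e-06 and 0.00035). The main mature strands of these hosts are shown to compare their seeds, of which miR-29b-3p and miR-29c-3p share AGCACCA.
mmu-miR-29b-3p: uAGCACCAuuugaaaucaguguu
mmu-miR-29c-3p: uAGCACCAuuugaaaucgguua
mmu-miR-101a-3p: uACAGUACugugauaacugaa
mmu-miR-1839-5p: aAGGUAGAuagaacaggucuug
mmu-let-7d-5p: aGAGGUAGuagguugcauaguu
mmu-miR-24-3p: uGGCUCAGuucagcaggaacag

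The hosts that fell were C130071C03Rik, which holds miR-9-2, and Mir17hg, the host of the miR-17 to miR-92a cluster that dividing cells express. Mir17hg, at chr14:115042879-115046727 on the plus strand, had 2.08, 1.92, 2.93, 1.95 and 3.42 CPM on day 6, against 8.0, 7.70, 7.56, 6.59 and 7.05 CPM before. Every day 6 library lay below every library before (log2 fold change -1.60 ± 0.17 SE, adjusted p = 1.04e-07). C130071C03Rik had 0.791, 0.694, 0.366, 0.549 and 0.581 CPM on day 6, against 3.18, 2.69, 3.73, 4.23 and 3.97 CPM before, with no overlap (log2 fold change -2.54). In the Mir17hg cluster, miR-17-5p and miR-20a-5p share the seed AAAGUGC and miR-19a-3p and miR-19b-3p share GUGCAAA, as the mature strands show.
mmu-miR-17-5p: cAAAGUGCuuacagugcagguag
mmu-miR-20a-5p: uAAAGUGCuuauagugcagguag
mmu-miR-18a-5p: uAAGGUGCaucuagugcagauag
mmu-miR-19a-3p: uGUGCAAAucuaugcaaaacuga
mmu-miR-19b-3p: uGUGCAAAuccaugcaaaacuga
mmu-miR-92a-3p: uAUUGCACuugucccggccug
mmu-miR-9-5p: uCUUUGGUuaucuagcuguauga

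The host of miR-155, named Gm26667 in the table and Mir155hg in GENCODE M21, averaged 1.80 ± 0.51 CPM on day 6 and 1.16 ± 0.49 CPM before and did not pass the test (log2 fold change 0.63, adjusted p = 0.0892). Ftx, which holds miR-421 and miR-374b, and 2810008D09Rik, which holds miR-6516, did not pass it either. Mir143hg, known as Carmn in GENCODE M21 and named for the miR-143 and miR-145 cluster of smooth muscle, averaged 1.85 ± 0.39 CPM on day 6 and 1.05 ± 0.42 CPM before (log2 fold change 0.81). It had 97 counts before, so that the choice of genes bears on its direction. It was called higher with all libraries, and the call was lost without day 6 replicate 1. On the wider list of microRNA host genes, which also takes in other gene types, 11 of 20 tested were higher and 4 were lower, with a median log2 fold change of 0.75, where 40.1% of all genes tested were higher and 39.7% lower. The list also takes in Yam1, 5830416P10Rik and Mir143hg, in which no RefSeq hairpin lies on the same strand. Among the others Mir22hg and Dnm3os, which host miR-22 and the miR-199a and miR-214 cluster, had log2 fold changes of 1.75 and 1.69.

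The 10 largest increases were, at 1 CPM or more on day 6, RP23-185G9.3, B230312C02Rik, Gm14635, 2310065F04Rik, 4930544I03Rik, Gm14290, RP24-121M11.1, 9530026P05Rik, CAAA01152789.1 and RP23-326H11.1. Most of them carry only a clone or serial name, with no role that could be given here. Gm14635 was the most abundant of them, with 36.3, 37.0, 34.9, 35.7 and 40.4 CPM on day 6, against 0, 0.323, 0.0472, 0.0605 and 0 CPM before. It had 3210 counts on day 6 and 8 before, with a log2 fold change of 8.61. It lies on the X chromosome at chrX:12339782-12354996 on the minus strand, 179427 bp from the nearest protein-coding gene, Bcor.

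Of the 10, 3 had no count in any library before. RP23-185G9.3 had 6.23, 4.0, 4.02, 4.15 and 5.75 CPM, or 424 counts, on day 6 and was higher by at least 148-fold, taking 3 counts before as the floor. B230312C02Rik and 2310065F04Rik had 250 and 240 counts on day 6 and were at least 87.3-fold and 83.8-fold higher. 2310065F04Rik, known as linc-MYH, lies beside the myosin heavy chain genes at chr11:67112461-67120080 on the minus strand. It had 4.15, 2.72, 2.56, 1.59 and 2.39 CPM in day 6 replicates 1 to 5, the highest in replicate 1 and the lowest in replicate 4. Myh3, the embryonic myosin heavy chain gene and its nearest protein-coding neighbour, averaged 4279.5 CPM on day 6 and 3.61 CPM before (log2 fold change 10.21, adjusted p = 9.81e-10).

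Another 4 had 1 to 3 counts over the libraries before. Their folds are given here as ratios of summed counts over scaled totals, not as the fitted fold changes that ranked the genes. 4930544I03Rik was 352-fold higher, with a 95% counting interval of 62.7 to 13950, and RP24-121M11.1 was 253-fold higher (44.9 to 10010). 9530026P05Rik was 239.9-fold higher (42.6 to 9517) and Gm14290 195-fold (66.2 to 946). The fitted log2 fold changes of these genes were 7.75, 7.26, 7.18 and 7.32 in this order. Such intervals cover counting error only. CAAA01152789.1, named 5730419F03Rik in GENCODE M21, had 11.6, 10.5, 9.94, 9.10 and 12.46 CPM on day 6, against 0.274, 0.0539, 0.0472, 0.121 and 0 CPM before (log2 fold change 6.67). RP23-326H11.1 had 6.87, 6.89, 2.38, 2.08 and 2.32 CPM on day 6, against 0, 0, 0.0945, 0 and 0.118 CPM before (log2 fold change 6.36), so that day 6 replicates 1 and 2 stood apart from the other 3.

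The 10 largest decreases were those of RP24-73K7.4, 5830416P10Rik, 1190002F15Rik, C130071C03Rik, 2700038G22Rik, Gm13431, 4933404O12Rik, AU020206, Gm12415 and 2010300F17Rik. RP24-73K7.4, named Gm19589 in GENCODE M21 and located at chr1:88551517-88562167 on the plus strand, had 0, 0.427, 0.244, 0.366 and 0.129 CPM on day 6, against 9.54, 9.21, 7.84, 11.7 and 9.65 CPM before. It held 20 counts on day 6 and 867 before (log2 fold change -5.34). 5830416P10Rik, named Mirt1 in GENCODE M21, an RNA described in mouse myocardial infarction, had 0.247, 0.320, 0.122, 0.366 and 0.387 CPM on day 6, against 3.95, 4.20, 4.11, 3.93 and 3.32 CPM before (log2 fold change -3.73). In both genes every day 6 library lay far below every library before.

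1190002F15Rik, or Lockd, lies downstream of the cell cycle inhibitor gene Cdkn1b, and its locus in mouse erythroid cells is known to act on that gene. It had 0.445, 0.854, 0.549, 0.733 and 0.452 CPM on day 6, against 7.07, 6.14, 5.62, 4.23 and 7.05 CPM before, with no overlap (log2 fold change -3.30). The most abundant of the 10 were 4933404O12Rik and AU020206. 4933404O12Rik averaged 7.31 ± 0.49 CPM on day 6 and 29.8 ± 2.2 CPM before (SD, n = 5 each), with a log2 fold change of -2.03 (adjusted p = 1.83e-13). AU020206 averaged 8.11 ± 1.03 CPM on day 6 and 29.6 ± 2.2 CPM before, with a log2 fold change of -1.86 (adjusted p = 3.80e-12).

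RefSeq promoters, 250 bases before to 50 after the start of a gene, matched 90 of the 180 genes by name, and in 76 the start lay within 500 bases of that in the table. They were searched on both strands for CAGCTG, an E-box that myogenic basic helix-loop-helix factors such as MyoD bind, and for the MEF2 motif, which shares no base with CAGCTG where they meet. Both motifs read the same on either strand. CAGCTG was found in 16 of the 76 promoters (21.1%) and in 16.3% of all 32851 promoters of the same length. It was in 9 of 33 promoters of genes higher by more than 1 on the log2 scale (27.3%). It was in 6 of 17 of genes that were lower by any amount (35.3%) and in 0 of 12 of genes that did not pass the test. The higher and lower sets are cut at unlike limits, and genes that were higher by less than 1 are in none of the sets, so these shares do not compare increases with decreases. The MEF2 motif was in 2 of the 76 promoters, those of RP24-121M11.1 and Snhg1, and in 0.557% of all promoters. Of the 10 largest increases 6 had a promoter, and 2 of these held CAGCTG and 1 the MEF2 motif, and of the 10 largest decreases 8 had a promoter, and 4 of these held CAGCTG. A match is a description of the letters and not a bound site. The promoters of the 3 increases and of the largest decrease are shown 5′ to 3′ with the motifs in capitals (RefSeq, GRCm38.p6). They lie at chrX:12354947-12355246 (minus strand), chr1:177642894-177643193 (minus strand), chr13:99087872-99088171 (minus strand) and chr1:88551267-88551566 (plus strand). CAGCTG begins 45 bases before the start in Gm14635, 7 bases after it in RP23-326H11.1 and 23 bases before it in RP24-73K7.4, and the motif in RP24-121M11.1 is that of MEF2.
Gm14635: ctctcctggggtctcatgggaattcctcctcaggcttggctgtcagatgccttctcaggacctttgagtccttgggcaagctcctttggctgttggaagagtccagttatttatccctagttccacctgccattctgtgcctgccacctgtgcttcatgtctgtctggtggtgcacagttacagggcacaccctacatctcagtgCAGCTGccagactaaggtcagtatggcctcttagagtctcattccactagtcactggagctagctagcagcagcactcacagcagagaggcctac
RP23-326H11.1: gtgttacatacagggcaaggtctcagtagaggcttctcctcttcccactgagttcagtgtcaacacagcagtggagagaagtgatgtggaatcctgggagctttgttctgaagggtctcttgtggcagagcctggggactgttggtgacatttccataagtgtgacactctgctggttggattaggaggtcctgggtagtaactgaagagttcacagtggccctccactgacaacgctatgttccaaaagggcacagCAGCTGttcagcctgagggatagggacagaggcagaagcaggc
RP24-121M11.1: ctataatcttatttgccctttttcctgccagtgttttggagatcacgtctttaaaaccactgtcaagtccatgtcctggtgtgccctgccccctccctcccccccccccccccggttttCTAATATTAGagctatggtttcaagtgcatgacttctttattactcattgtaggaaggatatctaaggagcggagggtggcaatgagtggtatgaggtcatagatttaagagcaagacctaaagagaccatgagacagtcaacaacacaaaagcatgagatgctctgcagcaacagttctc
RP24-73K7.4: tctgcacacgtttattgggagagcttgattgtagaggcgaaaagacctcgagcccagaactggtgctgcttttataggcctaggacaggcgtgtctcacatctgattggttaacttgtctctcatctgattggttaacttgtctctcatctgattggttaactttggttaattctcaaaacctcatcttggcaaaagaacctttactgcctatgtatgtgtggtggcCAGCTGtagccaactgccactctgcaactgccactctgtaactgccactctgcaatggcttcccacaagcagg

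Host genes of snoRNAs, which carry in their introns the guide RNAs for the modification of ribosomal RNA, mostly fell. Of 18 tested on the list, which takes in other gene types, 14 were lower and 2 were higher, with a median log2 fold change of -0.91, where 39.7% of all genes tested were lower and 40.1% higher. Among the 8 of them that are lincRNA genes here, Snhg1, Snhg4, Snhg6, Snhg7, Snhg12 and 2410004N09Rik were lower, Snhg18 was higher and 2810008D09Rik did not pass the test. Over the 11 lincRNA genes with an annotated snoRNA or scaRNA inside on the same strand, 8 were lower and 2 were higher, and the median was -1.02, against 0.55 over all 180. Besides those on the list, these were 2700038G22Rik, which holds Snord93, 9330159M07Rik and 2900076A07Rik, whose entry is the miR-1839 hairpin typed as a snoRNA or scaRNA in the annotation.

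Snhg1, the host of a cluster of 8 annotated snoRNAs, had 16.1, 12.7, 20.8, 15.4 and 16.7 CPM on day 6, against 44.5, 42.9, 38.5, 35.1 and 35.1 CPM before. The groups did not overlap (log2 fold change -1.27 ± 0.11 SE, adjusted p = 1.43e-08). Snhg6, the host of Snord87, had 8.16, 9.13, 8.17, 6.23 and 6.13 CPM on day 6, against 16.3, 16.6, 14.7, 14.3 and 15.3 CPM before (log2 fold change -1.02 ± 0.12 SE, adjusted p = 2.33e-07). Snhg12 had 8.85, 8.92, 15.1, 12.9 and 12.9 CPM on day 6, against 16.8, 18.5, 15.5, 17.4 and 18.01 CPM before (log2 fold change -0.56 ± 0.13 SE, adjusted p = 0.000853), and day 6 replicate 3 came close to before replicate 3. The largest decrease among the hosts here was that of 2700038G22Rik, with 0.940, 0.694, 0.670, 1.28 and 1.16 CPM on day 6, against 6.47, 5.28, 4.06, 4.78 and 5.57 CPM before (log2 fold change -2.46).

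Snhg18, the host of Snord123, moved the other way, with 5.89, 4.59, 8.47, 10.3 and 7.55 CPM on day 6, against 3.73, 2.86, 3.59, 3.51 and 3.55 CPM before. The groups did not overlap, with day 6 replicates 1 and 2 nearest to the libraries before (log2 fold change 1.09 ± 0.19 SE, adjusted p = 5.03e-05). Of the host genes typed otherwise, Gas5, known for its accumulation in growth-arrested cells, and Snhg5 fell by 1.19 and 1.37 in log2 units (adjusted p = 8.39e-09 and 7.70e-10).

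**Figure D4:**
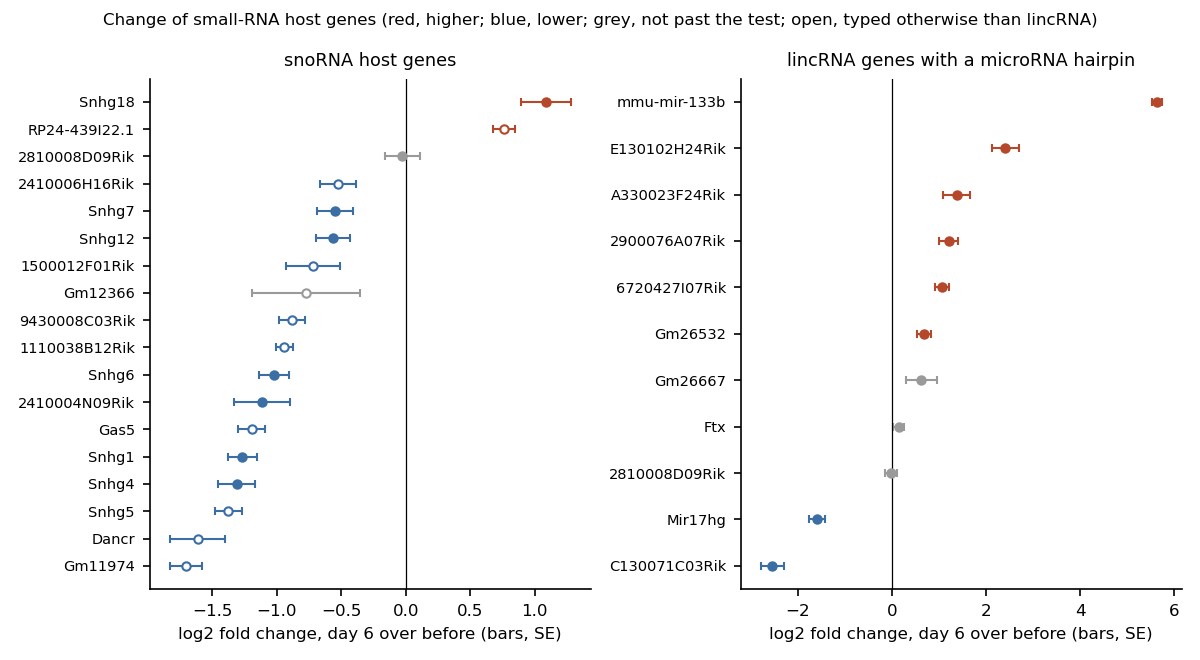
Log2 fold change, day 6 over before (x axis, bars for the standard error), of the 18 snoRNA host genes tested (left) and of the 11 lincRNA genes with a microRNA hairpin (right). Red points were higher, blue points lower and grey points did not pass the test, and open points are genes typed otherwise than lincRNA. Of the snoRNA hosts 14 are lower, and of the microRNA hosts 6 are higher.

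On a list of genes first typed as noncoding that are now known to encode small proteins, 1810058I24Rik was the one lincRNA gene. RefSeq gives it the synonym Stmp1, a short transmembrane protein of mitochondria. It had 54.1, 59.7, 53.6, 51.8 and 51.6 CPM on day 6, against 28.6, 28.6, 29.1, 31.6 and 32.3 CPM before, with no overlap (log2 fold change 0.85 ± 0.06 SE, adjusted p = 6.91e-10). This list had 5 tested genes, typed otherwise in the table apart from 1810058I24Rik. Of these 5, 4 were higher and 1 did not pass the test, with a median log2 fold change of 0.93, where 40.1% of all genes tested were higher and 39.7% lower. The log2 fold change was 7.71 for Gm7325, which encodes the fusion protein myomixer, and 3.60 for 2310015B20Rik, which encodes myoregulin.

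Among RNAs known from cell growth and p53, Trp53cor1 and Pvt1 moved apart. Trp53cor1, or lincRNA-p21, is a p53 target that lies upstream of Cdkn1a, the gene of the cell cycle inhibitor p21. It had 7.32, 8.49, 7.68, 7.39 and 7.81 CPM on day 6, against 1.48, 0.754, 0.992, 0.302 and 0.711 CPM before (log2 fold change 3.16). All day 6 libraries lay above those before. Pvt1, which lies downstream of Myc, had 5.84, 5.82, 8.17, 10.3 and 7.29 CPM on day 6, against 17.2, 16.3, 15.4, 14.2 and 14.3 CPM before (log2 fold change -1.05 ± 0.14 SE, adjusted p = 1.55e-06). Crnde averaged 6.79 ± 0.89 CPM on day 6 and 5.39 ± 0.54 CPM before (log2 fold change 0.33, adjusted p = 0.0283), and its call was lost without before replicate 4 (adjusted p = 0.0804), day 6 replicate 1 (0.0795) or day 6 replicate 3 (0.0591). Over this list, other gene types included, 3 of 8 genes tested were higher and 4 lower, with a median log2 fold change of -0.07. These shares are near those of all genes tested, 40.1% higher and 39.7% lower.

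On the list of nuclear and chromatin RNAs, 8 of 12 tested were higher and 1 was lower, with a median log2 fold change of 0.56, near the 0.55 of all 180 lincRNA genes, where 40.1% of all genes tested were higher. Of the 6 lincRNA genes on it Malat1, Neat1, Xist and Jpx were higher. Hotair, an RNA of the HoxC cluster, averaged 4.43 ± 0.44 CPM on day 6 and 4.26 ± 1.01 CPM before and did not pass the test (log2 fold change 0.06, adjusted p = 0.759). Of the muscle RNAs on the list 11 were tested, and 6 were higher and 4 lower, with a median log2 fold change of 1.20. Of all genes tested, 40.1% were higher and 39.7% lower, and of the 180 lincRNA genes 53.3% were higher. Of the 6 lincRNA genes among them, mmu-mir-133b, Malat1 and Neat1 were higher, Mir17hg and Pvt1 were lower and Yam1 did not pass the test. Dubr, a muscle RNA named 5330426P16Rik in the table and found after its value was seen, was higher by 0.22 on the log2 scale (adjusted p = 0.0497).

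1700020I14Rik, named Oip5os1 or Cyrano in RefSeq, an RNA known in mouse for binding miR-7 and speeding its decay, had 298, 273, 267, 276 and 277 CPM on day 6, against 87.9, 90.0, 73.1, 81.1 and 71.0 CPM before. It did not overlap between the conditions (log2 fold change 1.79 ± 0.07 SE, adjusted p = 2.59e-14). 3300005D01Rik averaged 31.99 ± 3.4 CPM on day 6 and 26.5 ± 1.3 CPM before, a small difference that passed the test (log2 fold change 0.27, adjusted p = 0.00358). C330006A16Rik, which GENCODE M21 names as a pseudogene of Tmem250, averaged 37.4 ± 3.1 CPM on day 6 and 40.2 ± 1.8 CPM before and did not pass it (log2 fold change -0.10, adjusted p = 0.161).

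The rule did not use the position of the genes. The nearest protein-coding gene was tested for 144 of the 180, and over these 144 pairs the log2 fold changes of lincRNA and neighbour had a Pearson correlation of 0.43 and a Spearman correlation of 0.41, across genes, as a description. The pairs share libraries, and the 144 pairs hold 138 different neighbours. Both members passed the test in 80 pairs, and they moved the same way in 53 of these. In 39 both rose, in 14 both fell, in 20 the lincRNA gene rose and the neighbour fell, and in 7 the lincRNA gene fell and the neighbour rose. Of all genes tested, 79.8% passed the test, 40.1% higher and 39.7% lower. How many double calls and same-way pairs these shares alone would give was not computed. The Pearson correlation was 0.70 over the 35 pairs that overlap on opposite strands and -0.56 over 7 pairs that overlap on the same strand. The strand setting of the counting is not stated, so overlapping genes may share reads, which was not tested. The correlation was 0.67 over 18 convergent pairs and 0.24 over 47 divergent pairs. With the lincRNA gene downstream or upstream on the same strand it was 0.55 over 20 and 0.51 over 17 pairs.

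Pairs in which both fitted log2 fold changes were above 3 included those of Trp53cor1 and 4930544I03Rik. Trp53cor1 lies 12018 bp from Cdkn1a in the divergent orientation, and Cdkn1a averaged 1450.0 CPM on day 6 and 167 CPM before (log2 fold change 3.12, adjusted p = 2.87e-17). 4930544I03Rik lies upstream of Dio2, which encodes the deiodinase that activates thyroid hormone and was higher by 4.58 on the log2 scale (adjusted p = 1.70e-18). Such pairs were also 2310065F04Rik with Myh3 and, named after its values were seen, A830019P07Rik (log2 fold change 3.05) with the serotonin receptor gene Htr7 (3.38). RP23-185G9.3 starts 96 bp from the start of Grtp1 on the other strand, and Grtp1 was higher by 2.25 on the log2 scale (adjusted p = 2.66e-12).

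Other pairs moved apart. C130071C03Rik fell while Mef2c, the gene of a MEF2 factor 54302 bp upstream of it, averaged 473 CPM on day 6 and 10.4 CPM before (log2 fold change 5.50, adjusted p = 2.91e-17). 1700020I14Rik rose while Oip5, a gene of centromere assembly 2010 bp away, averaged 1.05 CPM on day 6 and 10.6 CPM before (log2 fold change -3.31, adjusted p = 1.28e-10). Lockd fell while Cdkn1b was higher by 0.57 on the log2 scale (adjusted p = 8.85e-08). Pvt1 fell with its neighbour Myc, which fell by 1.96 in log2 units (adjusted p = 9.54e-07).

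**Figure D5:**
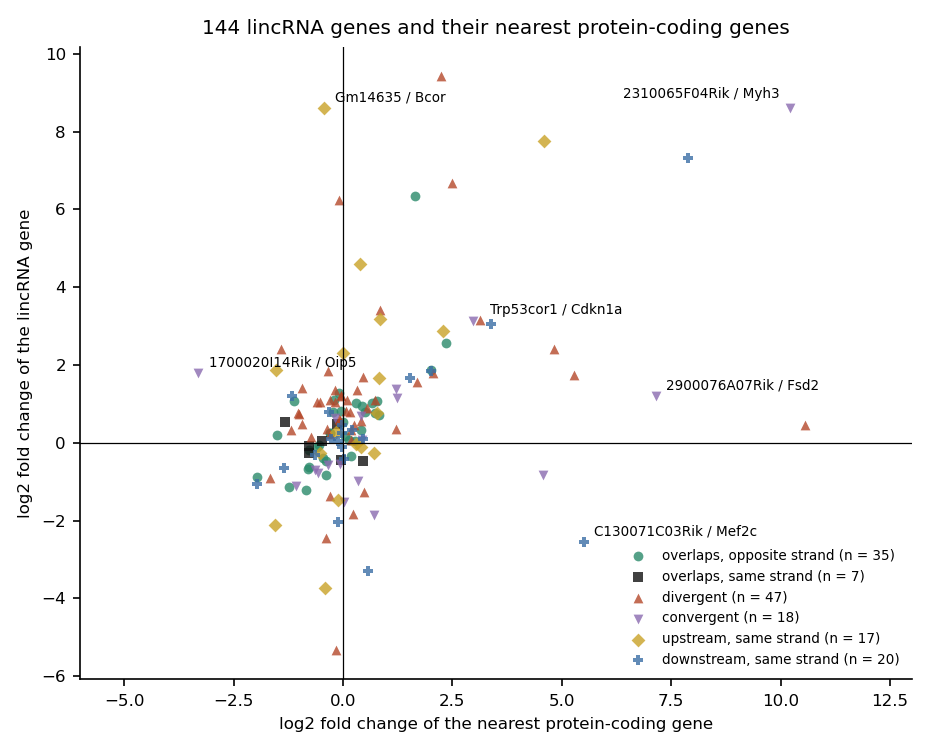
Log2 fold change, day 6 over before, of the nearest protein-coding gene (x axis) and of the lincRNA gene (y axis) for 144 pairs, with a symbol for each kind of position. Trp53cor1 with Cdkn1a and 2310065F04Rik with Myh3 lie at the upper right, and C130071C03Rik with Mef2c, at 5.50 on the x axis and -2.54 on the y axis, lies at the lower right.

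Among genes of at least 1 CPM on day 6, the widest range over the median within day 6 was that of 2310043M15Rik, RP23-326H11.1, Gm4262, 6030443J06Rik and Gm10603. 2310043M15Rik, antisense to Dopey2, had 12.1, 9.98, 3.60, 4.88 and 2.97 CPM on day 6, against 0, 0.108, 0.0945, 0.181 and 0 CPM before (log2 fold change 6.34). As in RP23-326H11.1, day 6 replicates 1 and 2 were the high ones. 6030443J06Rik had 1.24, 1.39, 3.05, 1.59 and 4.0 CPM on day 6, against 1.92, 1.94, 1.98, 1.94 and 1.07 CPM before, and did not pass the test (log2 fold change 0.32, adjusted p = 0.359). Gm4262 did not pass it either (log2 fold change 0.53), and Gm10603 passed it with all libraries (log2 fold change 1.07) but not when any of 5 single libraries was left out.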

How the data were processed

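RNA-seq libraries of C2C12 cells, 5 at each stage, were analysed. The authors trimmed reads with Trimmomatic, aligned them with STAR 2.5 and counted them per gene with HTSeq 0.6.1 on mm10, per the labels and the study's methods, and deposited a table of raw counts beside FPKM values. The FPKM columns of the authors were not used. How HTSeq treated strand and overlapping genes is not given in the sources used here. That the differentiating libraries were taken on day 6 comes from the study's methods.

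Counts of all genes were fitted with edgeR 4.0.16 (R 4.3.3) by its quasi-likelihood test, with TMM scaling, filterByExpr by stage and Benjamini-Hochberg adjustment over 13085 genes, with a threshold of 0.05. Standard errors were derived from the fold change and its F statistic. CPM values use TMM-scaled totals. The fits were tested on simulated counts with known changes. Gene symbols, positions and protein-coding neighbours came from the authors' table. Later names and types, snoRNAs and ribosomal RNA intervals came from GENCODE M21 (GRCm38), and microRNAs and promoters from RefSeq (GRCm38.p6). The lincRNA genes and the gene lists were chosen with earlier results of these data known. Genes were named by this rule: the 10 highest per kilobase, the 10 largest increases and decreases that passed the test without overlap at 1 CPM or more, the genes of the lists, the 5 most variable on day 6 and the genes at the limit of 200 counts.

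The neighbour of 1 lincRNA gene is not reported here. Alternatives were other sums for inclusion, totals without TMM, RLE and upper-quartile factors, the 3 most abundant lincRNA genes left out of totals, no filter, a filter of 1 CPM in 5 libraries, DESeq2 1.42.0, a replicate block, each library left out in turn and, chosen after the data were seen, 3 sets of libraries left out.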

Additional observations from a re-analysis of the deposited data

Results flagged for a closer look

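Of 111 groups of 5 libraries, at the named genes and at the share of counts of all lincRNA genes with and without Yam1, 7 held a library far from the other 4 by Dixon's test at the 95% level, about as many as the 1 in 20 that chance gives. All 7 were libraries before differentiation. The lowest library stood apart for 6030443J06Rik, with 1.07 CPM in replicate 5 and 1.92 CPM in the next, for Gm26667, with 0.323 CPM in replicate 2 and 1.28 CPM in the next, and for Snhg18, with 2.85 CPM in replicate 2 and 3.51 CPM in the next. The highest library stood apart for Gm14635, with 0.323 CPM in replicate 2 and 0.0605 CPM in the next. A single count set the value for 9530026P05Rik (0.0548 CPM in replicate 1), 4930544I03Rik (0.0548 CPM in replicate 1) and RP24-121M11.1 (0.0592 CPM in replicate 5), where the other libraries before had none.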

How the results depend on the processing

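Over 19 settings, that of the report included, 87 lincRNA genes were called higher and 35 lower in every one, and none was called in opposite directions in any pair of them. With single libraries left out, 89 to 96 genes were higher and 36 to 42 lower, 58 to 68 were higher and 21 to 24 lower by more than 1 on the log2 scale, and the median log2 fold change was 0.49 to 0.62. DESeq2 called 95 higher and 38 lower, totals without TMM 93 and 40, and no filter 94 and 38. A sum of 100 or more gave 270 tested genes, with 123 higher and 53 lower. RLE or upper-quartile factors and totals without the 3 most abundant lincRNA genes left both counts as they were. A sum of 500 or more kept 89 genes, with 48 higher, 26 lower and a median of 0.33. The share of library counts ran from 4.96% to 5.06% on day 6 and from 4.10% to 4.94% before with single libraries left out, and was 0.827% on day 6 and 0.309% before without Yam1. Replicate numbers did not pair the libraries, since the correlations of same-numbered deviations ran from -0.05 to 0.01. With the replicate block 93 genes were higher and 39 lower, 65 and 24 by more than 1 on the log2 scale, with a median of 0.57. In alternatives chosen after the data were seen, 91 were higher and 39 lower without day 6 replicates 1 and 2, 90 and 31 without day 6 replicates 3, 4 and 5, and 89 and 36 without before replicates 2 and 3.

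Of 1155 values of the 55 named genes under these settings, 1116 kept their direction and side of the threshold, 20 lost the call, 4 gained it in the same direction and 15 changed sign. Those that changed sign had no call with all libraries, and Yam1 alone of them gained one (adjusted p = 0.00118 by edgeR without before replicates 2 and 3). With single libraries left out, the log2 fold change ran from -0.14 to 0.17 for Yam1 (0.003 without day 6 replicate 5), from -0.0902 to 0.0672 for 2810008D09Rik and from -0.04 to 0.16 for Hotair (-0.0433 without before replicate 3). Yam1 reached 0.0152 with the replicate block, 0.0773 without day 6 replicates 3, 4 and 5 and 0.32 without before replicates 2 and 3. 2810008D09Rik reached 0.0879 without day 6 replicates 1 and 2. Hotair reached -0.0158 without day 6 replicates 3, 4 and 5 and -0.0547 without before replicates 2 and 3. C330006A16Rik reached 0.0215 and 6030443J06Rik -0.39 without day 6 replicates 3, 4 and 5. The calls lost were those of Crnde, Jpx, Mir143hg and Gm10603, and the calls gained in the same direction those of Ftx (0.35 without day 6 replicates 3, 4 and 5), 6030443J06Rik (0.71 without day 6 replicates 1 and 2), Gm4262 (1.07 without before replicate 1) and Gm26667 (0.76 without day 6 replicate 4). The cause was not tested.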
